A study of Mus musculus with 12 samples.

Results

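The cell cycle genes examined here were 42 genes of the count table, taken by symbol out of 25171 loci, 22036 of which carried an Ensembl gene identifier. They cover the passage from G1 into S phase (5 genes), DNA replication (10 genes) and G2, mitosis and its exit (27 genes, called the mitotic genes below). All 42 were found in the table and all 42 passed the filter on low counts in each comparison.

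A dividing cell leaves G1 when D-type cyclins activate their kinases, which releases E2F factors from the retinoblastoma protein family and switches on the replication genes. The MCM complex is loaded on DNA as the replicative helicase, PCNA clamps the polymerases to DNA, and ribonucleotide reductase and thymidylate synthase supply nucleotides. Cyclin A and cyclin B then drive CDK1, after which the Aurora, PLK1 and BUB1 kinases, the kinetochore proteins and the spindle motors separate the chromosomes, and the anaphase-promoting complex ends mitosis. Cardiomyocytes of mice largely leave the cell cycle soon after birth, and most cells that divide in the adult heart are non-myocytes. In bulk RNA of a whole tissue, fewer cells of a type and less RNA per cell cannot be told apart.

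The data were 12 libraries of heart RNA, 3 biological replicates in each of 4 groups. EIIa-tg mice (E2a-transgenic in the labels) carried a loxP-stop-loxP NOTCH2NLC transgene with 98 GGC repeats at Rosa26 and EIIa-Cre, which deletes the stop in all tissues, and were taken at postnatal day 30. EIIa-ctl mice were littermates with the conditional transgene and no Cre. Myh6-tg mice carried the same transgene and Myh6-creERT2, whose Cre is made in cardiomyocytes and needs tamoxifen, and received 3 injections of tamoxifen at 75 mg per kg every other day from day 60 before collection at day 90. Myh6-ctl mice were of the same labelled genotype and age and received corn oil. Thus all 4 groups carried the silent or activated transgene, no group was without it, and tamoxifen was given to Myh6-tg alone. EIIa-tg replicates 2 and 3 bear other genotype tags (e3a and e4a) than replicate 1 and were grouped by title. The sources used here do not say whether a heart came from 1 animal.

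Total counts lay between 38343106 and 50969834 per heart, and the 42 genes together took 0.0230% to 0.0466% of them. Of the 504 values (42 genes in 12 hearts), 3 were 0 and 5 were at or under 3 counts. Transcripts matching Esr1, whose ligand-binding part is built into tamoxifen-inducible Cre, lay between 1028 and 2336 CPM (counts scaled to library size) in the hearts labelled Myh6-ctl but between 0.988 and 2.49 CPM in those labelled Myh6-tg, against 0.411 to 1.24 CPM in the EIIa hearts. Both Myh6 groups are labelled with the same Cre genotype, and these values go against that. The hearts are therefore called by their labels, and every direction in the Myh6 line rests on the labels. The 4 Y-linked genes counted gave at least 4224 reads in each replicate 1, and no other heart had more than 2. In the mitotic genes the first Myh6-tg heart differed from the other two, so results that rest on it are given with and without it. The extraction protocol names brain, but the tissue label is heart, and the 7 cardiomyocyte markers summed to at least 8028 normalised CPM in every heart.

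First, the levels of the 42 genes were set side by side in the 6 control hearts, in FPKM, a unit that corrects for gene length and depth. Pcna, the replication clamp, had the highest median at 25.8 FPKM (22.5 to 30.5), followed by the G1 cyclins Ccnd1 at 21.9 (12.3 to 26.7), the centromeric histone Cenpa at 18.4 (16.5 to 23.0) and Ccnd2 at 12.2 (7.07 to 13.4). These ranges overlapped between neighbours in that order apart from Cenpa and Ccnd2. Next stood the helicase subunit Mcm6 at 4.63 FPKM (2.80 to 6.95), below all Ccnd2 values. Only 16 of the 42 genes had a median of at least 1 FPKM, and the lowest were the checkpoint kinases Bub1 (0.131) and Ttk (0.103) and the kinetochore motor Cenpe (0.0731). Mki67, the antigen used to mark cycling cells, had a median of 0.398 FPKM, and Cdk1 one of 0.397 FPKM.

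Within a group, mitotic genes varied more between hearts than the others. Most of them were also rarer, and role and level were not separated. Cenpa, the most abundant mitotic gene, had a mean of 28.3 normalised CPM (SD 2.16) in EIIa-ctl. The rare G1 gene Ccne1 had a mean of 1.59 (SD 0.556) there. The median coefficient of variation of the 27 mitotic genes was 42.4% among EIIa-ctl hearts and 38.9% among EIIa-tg hearts, against 13.5% and 20.6% for the 15 G1 and replication genes. Among Myh6-ctl hearts it was 34.6% against 22.7%, and among Myh6-tg hearts 56.3% against 18.6%. They also moved together by heart. EIIa-ctl replicate 2 was the highest of its group in 24 of 27 mitotic genes, Myh6-ctl replicate 3 in 23 and Myh6-tg replicate 2 in 23, while EIIa-tg replicate 1 was the lowest in 20 and Myh6-tg replicate 1 in 24. Genes of one heart share its library, so these counts describe hearts and are not independent observations.

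Promoter sequences from RefSeq (GRCm38.p6, from 250 bases before to 50 after the start) were available for 34 of the 42 genes. They are shown because mitotic and replication genes are known to be switched on through different promoter elements. The cell cycle homology region (CHR, TTTGAA, either strand) bound by the DREAM and MuvB complexes was present in 16 of 23 mitotic genes (69.6%), in 1 of 11 G1 and replication genes (9.09%, Mcm2) and in 20.2% of all 27025 genes with a promoter of this length. A CCAAT box (CCAAT, either strand) was present in 26 of the 34 genes (76.5%) against 41.1% of all genes. An E2F site (TTTCCCGC or TTTGGCGC, either strand) was found in 4 of 11 G1 and replication genes (36.4%), in 0 of 23 mitotic genes and in 1.8% of all genes. None of these motifs contains another, and a match describes the window only. Stretches around a motif are given 5′ to 3′ on the strand of the gene (minus in all 7), with the motif in capitals (a CCAAT box in the Cdc20 and Mcm6 stretches is left in lower case). The first 5 hold a CHR, among them Mcm2, and the last 2 an E2F site.
Cdk1, chr10:69352911-69352938: accgcggcgagTTTGAAactgctggcac
Ccnb2, chr9:70421534-70421561: gcggcgcggtaTTTGAAtcgcggaccgg
Cdc20, chr4:118437345-118437372: gacagttgggtTTTGAAggagccaatga
Mki67, chr7:135716461-135716488: cgccgttttggTTTGAAtcgggcgggct
Mcm2, chr6:88898834-88898861: gggctcagcctTTTGAAagctgtgggcg
Mcm6, chr1:128359734-128359763: gattggacgggTTTGGCGCgaagtagctca
Mcm3, chr1:20820275-20820304: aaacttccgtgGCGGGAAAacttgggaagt

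The EIIa comparison asked which of these genes differed in day 30 hearts with the transgene active in all tissues. The D-type cyclins Ccnd1 and Ccnd2 fell and the helicase subunit Mcm7 rose by edgeR, while none of the 27 mitotic genes passed that test, although 21 of the 27 had a log2 fold change below 0. By edgeR's quasi-likelihood test over 14908 genes with Benjamini-Hochberg adjustment (a gene was called at an adjusted p under 0.05), 1 of 42 genes was called higher, against 8.65% of all genes, and 2 of 42 were called lower, against 8.3%. Thus the share called was under the background in both directions. DESeq2 called 2 of 42 higher (Mcm6 and Mcm7, against 9.24% of all genes) and 3 lower (Ccnd1, Ccnd2 and the mitotic gene Prc1, against 8.92%). The third D-type cyclin, Ccnd3, is not among the 42 and was not called by edgeR (log2 fold change -0.38, SE 0.18, adjusted p = 0.18). Scaling by library totals alone moved the median of all genes to 0.21. Of 3173 genes it called, 2531 were higher (17% of all genes higher and 4.31% lower), against 1289 of 2527 with TMM scaling. With totals alone Mcm6 was called higher beside Mcm7, with both cyclins lower.

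Ccnd1, which starts the G1 kinase cascade, had 90.1, 92.0 and 91.6 normalised CPM in EIIa-ctl replicates 1 to 3 and 19.6, 53.1 and 27.2 in EIIa-tg. Every EIIa-tg heart was below every control, with replicate 2 the least so (log2 fold change -1.45, standard error (SE) 0.31, adjusted p = 0.0242). Ccnd2, a second D-type cyclin, had 87.4, 91.4 and 97.5 normalised CPM in the controls against 37.6, 65.5 and 36.9. The groups again did not overlap, and EIIa-tg replicate 2 again lay nearest to the controls (log2 fold change -0.97, SE 0.21, adjusted p = 0.0246). Mcm7 had 10.4, 11.3 and 13.4 normalised CPM against 18.7, 16.3 and 22.3, so that all transgenic hearts stood above the controls (log2 fold change 0.71, SE 0.16, adjusted p = 0.0253).

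In the table Ccnd1, Ccnd2 and Mcm2 carry the identifiers ENSMUSG00000070348, ENSMUSG00000000184 and ENSMUSG00000002870. Ccnd2 lies at chromosome 6, 127125162 to 127152193, and Mcm2 at chromosome 6, 88883474 to 88898780, both on the minus strand of GRCm38, and Mcm2 exons overlap no other gene. Exons of Ccnd1 (chromosome 7, 144929931 to 144939925, minus strand, GRCm38) share 1100 bases with exons of LTO1 on the other strand, and the sources used here do not say whether counting used strand. LTO1 itself lay between 14.4 and 19.0 normalised CPM in EIIa-ctl and between 10.2 and 15.8 in EIIa-tg (adjusted p = 0.226). Mcm7 exons overlap those of Ap4m1 and Cops6 on the other strand by 321 and 64 bases, and these had adjusted p-values of 0.311 and 0.309. Ccnd2 exons overlap 2 antisense genes, 9330179D12Rik and Gm43126, which have no rows of their own in the table.

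**Figure D1:**
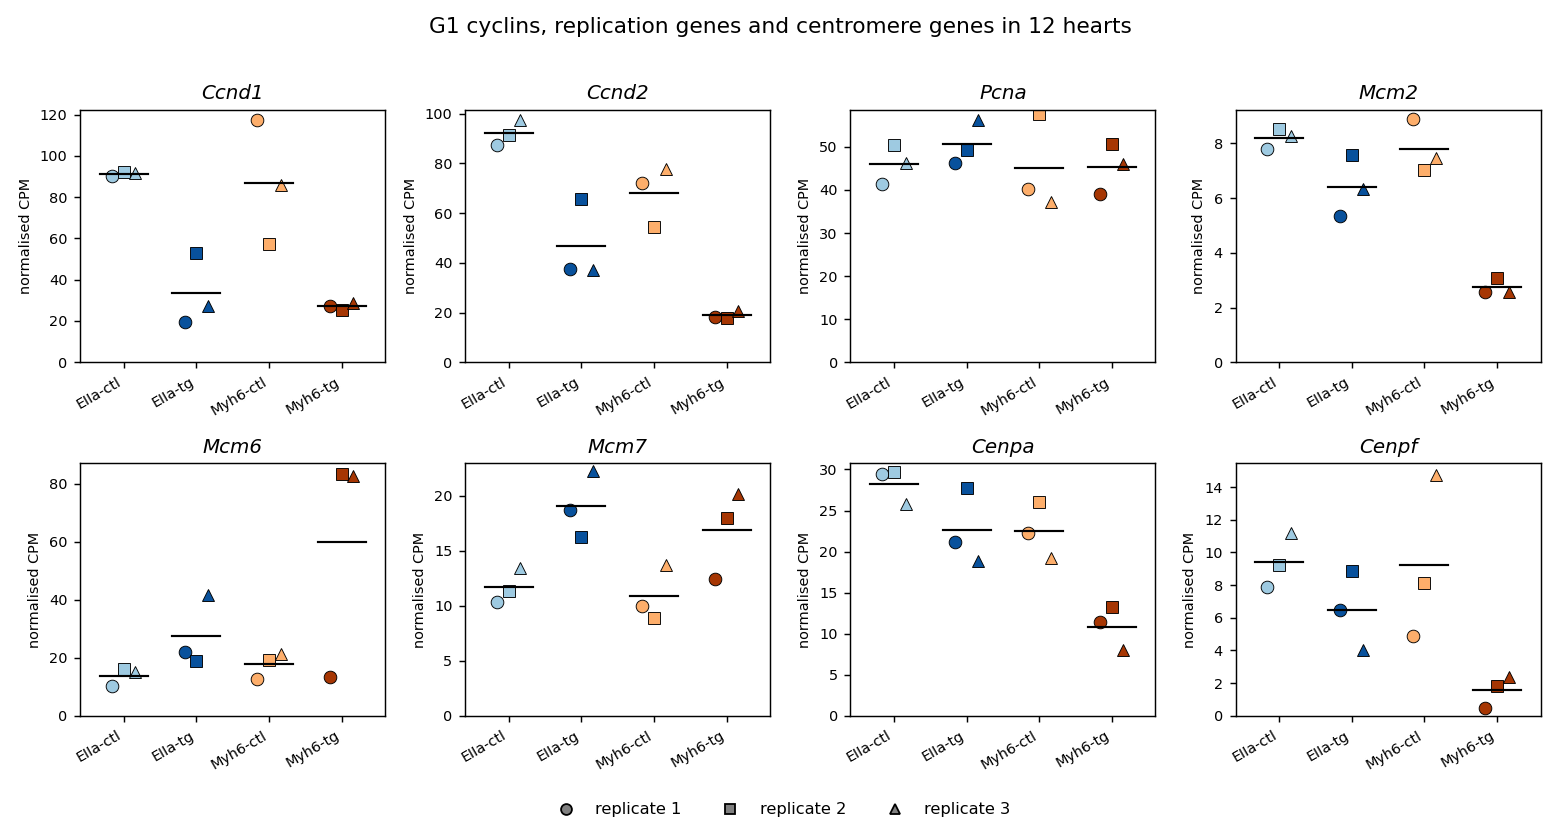
Normalised CPM (vertical axes, from 0) of 8 cell cycle genes in the 4 groups, with each heart as a point shaped by replicate number and the group mean as a line. Ccnd1 and Ccnd2 are lower in all 6 transgenic hearts than in the controls of their line, Mcm2 is at most 3.10 in Myh6-tg and at least 5.35 in the other groups, and Mcm6 reaches 83.5 and 82.8 in Myh6-tg replicates 2 and 3 but 13.5 in replicate 1.

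Of the genes that were not called, the checkpoint kinase Bub1 and the spindle midzone protein Prc1 had the largest fold changes. Bub1 had 0.507, 1.10 and 0.493 normalised CPM in EIIa-ctl and 0.343, 0.181 and 0.133 in EIIa-tg (log2 fold change -1.67, SE 0.62, adjusted p = 0.0939). Prc1 had 2.39, 4.70 and 2.71 against 0.491, 1.69 and 1.82 normalised CPM (-1.28, SE 0.49, adjusted p = 0.102). Neither pair of groups overlapped, and both differences missed the threshold by edgeR, whereas DESeq2 called Prc1 lower. Cdk1, the mitotic kinase, had 2.05, 4.67 and 1.81 against 0.859, 1.41 and 1.69 normalised CPM, again without overlap (-1.10, SE 0.44, adjusted p = 0.116).

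Mki67 had 3.57, 7.48 and 2.49 normalised CPM in EIIa-ctl and 1.5, 3.22 and 2.18 in EIIa-tg, and these ranges overlapped (-0.96, SE 0.44, adjusted p = 0.16). Top2a, the topoisomerase that untangles mitotic chromosomes, had 3.52, 6.27 and 3.29 against 1.15, 3.82 and 2.40, also with overlap (-0.82, SE 0.44, adjusted p = 0.219). Ccnb1, the mitotic cyclin, had 0.507, 0.892 and 0.657 against 0.392, 0.564 and 0.489 (-0.50, SE 0.46, adjusted p = 0.481). In all of these the highest control was replicate 2.

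Of the replication genes, Mcm7 alone was called by edgeR, and Mcm6 was also called higher by DESeq2, with totals only, with no filter on low counts and without EIIa-tg replicate 2. Mcm6 had 10.1, 16.1 and 15.1 normalised CPM in EIIa-ctl and 22.0, 19.0 and 41.6 in EIIa-tg, without overlap (log2 fold change 1.00, SE 0.30, adjusted p = 0.0540). Mcm2 had 7.80, 8.53 and 8.27 against 5.35, 7.57 and 6.33, also without overlap (-0.35, SE 0.16, adjusted p = 0.173). Pcna had 41.4, 50.3 and 46.3 against 46.4, 49.2 and 56.3 (0.15, SE 0.11, adjusted p = 0.405).

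Over all 42 genes the median log2 fold change in EIIa-tg was -0.33, with 27 genes below 0, against a median of 0.016 over all genes tested. In 2 of 42 genes every EIIa-tg heart was above every control, against 20% of all genes, and in 7 of 42 every heart was below, against 21.1%. By role, the medians were -0.89 for the chromatin markers Mki67 and Top2a (2 genes), -0.70 for G1 control (5), -0.72 for the G2 and mitotic cyclins with Cdk1 (4 genes), -0.53 for the mitotic kinases (7), -0.45 for spindle and cytokinesis (8), -0.43 for centromere and chromosome passenger genes (4), -0.38 for mitotic exit (2), 0.15 for the helicase (6) and 0.11 for the clamp and nucleotide supply (4).

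The EIIa calls depended on single hearts. When replicate 1 or 3 of either EIIa group was left out, edgeR called 0 of the 42 genes, and the calls over all genes went from 2527 to between 0 and 133. Leaving out EIIa-ctl replicate 2 kept both cyclin calls alone, with 1794 of 15358 genes called in all. Leaving out EIIa-tg replicate 2 gave 2 genes called higher (Mcm6 and Mcm7) and 5 lower (Ccnd1, Ccnd2, Cenpa, Cenpf and Tpx2). In that fit 4079 of 15310 genes were called in all, 1969 of them higher.

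Markers of other cells moved in the same hearts. Of 6 macrophage markers 6 were called higher (summed 439 to 593 normalised CPM in EIIa-tg against 228 to 337 in EIIa-ctl), and 3 of 5 endothelial markers were called lower (643 to 745 against 861 to 994). Of 7 cardiomyocyte markers 1, Ryr2, was called lower, with sums of 16486 to 30809 against 34689 to 42246. Of 5 erythroid markers 1 (of 4 tested), Alas2, was called lower, with sums of 150 to 939 against 1088 to 1842. No marker of these lists was at 0 in all hearts of a group. Of 6 fibroblast markers 2, Pdgfra and Dcn, were called higher, and the 6 summed to 1945 to 2813 against 1148 to 1497, without overlap. Of the neutrophil markers S100a9 was called higher, with Ly6g at 0 in all EIIa-ctl hearts. The part of these cells in the cyclin and Mcm7 results was not tested.

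The Myh6 comparison set day 90 hearts labelled as given tamoxifen (Myh6-tg) against hearts given corn oil (Myh6-ctl). Tamoxifen, activation of the transgene and the level of transcripts matching Esr1 (given above) differ together here and cannot be told apart. In the hearts labelled Myh6-tg, 5 genes fell, namely the cyclins Ccnd1 and Ccnd2, the helicase subunit Mcm2, the centromeric histone Cenpa and the kinetochore protein Cenpf. No gene was called higher by edgeR, although 26 of 42 had a log2 fold change above 0 and several mitotic genes were at their highest of all 12 hearts in replicates 2 and 3. Of 15298 genes tested, 9.38% were called lower, against 5 of 42 cell cycle genes, and 8.96% were called higher, against 0 of 42. Of the 42, 5 with a positive and 6 with a negative fold change had an unadjusted p under 0.05 by edgeR, against 34.1% of all genes in either direction. DESeq2 called 3 higher (Anln, Ccnb1 and Mcm6, against 9.08% of all genes) and 5 lower (against 10.3%). Scaling by library totals alone moved the median of all genes to 0.43. Of 4007 genes it called, 3153 were higher (20.6% of all genes higher and 5.58% lower), against 1370 of 2805 with TMM. With totals alone 4 of the 42 were higher and 3 lower.

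Ccnd2 had 72.3, 54.5 and 77.8 normalised CPM in Myh6-ctl replicates 1 to 3 and 18.2, 17.7 and 20.8 in Myh6-tg (log2 fold change -1.83, SE 0.19, adjusted p = 0.00251). Ccnd1 had 117, 57.2 and 85.8 against 27.3, 25.2 and 28.5 (-1.66, SE 0.27, adjusted p = 0.00826). In both cyclins the transgenic hearts lay close together, far under the lowest control, and replicate 1 did not stand apart. LTO1, which shares exon bases with Ccnd1, was also called lower but by less (13.6 to 16.1 against 8.64 to 9.20 normalised CPM, log2 fold change -0.69, SE 0.18, adjusted p = 0.0343).

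Mcm2 had 8.91, 7.02 and 7.45 normalised CPM in Myh6-ctl against 2.57, 3.10 and 2.55 in Myh6-tg (log2 fold change -1.49, SE 0.24, adjusted p = 0.0089). Cenpa, which marks the centromere, had 22.3, 26.0 and 19.3 against 11.4, 13.2 and 7.96 (-1.03, SE 0.23, adjusted p = 0.0227). Cenpf had 4.87, 8.14 and 14.7 against 0.443, 1.85 and 2.39 (-2.55, SE 0.65, adjusted p = 0.0326), with replicate 1 the lowest of all hearts. The groups did not overlap in any of these. With the study's thresholds (adjusted p under 0.01 and an absolute log2 fold change of at least 1), Ccnd1, Ccnd2 and Mcm2 were called lower, against 2.05% of all genes. These 3 were also called when any 1 of the 6 hearts was left out, whereas Cenpf was called with all 6 and without Myh6-tg replicate 1 but was lost without each of the other 5, and Cenpa was lost without Myh6-ctl replicate 1 or 2 or Myh6-tg replicate 3.

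The helicase subunits did not move as one. Mcm5 had a log2 fold change of -0.79 (SE 0.31, adjusted p = 0.113), Mcm3 one of 0.08 and Mcm4 one of -0.33. Mcm6 had 12.8, 19.3 and 21.3 normalised CPM in Myh6-ctl and 13.5, 83.5 and 82.8 in Myh6-tg, so that replicates 2 and 3 stood far above the controls and replicate 1 among them (1.77, SE 0.60, adjusted p = 0.0794). Mcm7 had 9.996, 8.92 and 13.7 against 12.4, 18.0 and 20.2 (0.65, SE 0.26, adjusted p = 0.12). Pcna had 40.2, 57.6 and 37.3 against 39.0, 50.7 and 46.0, with full overlap (0.03, SE 0.21, adjusted p = 0.947).

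**Figure D2:**
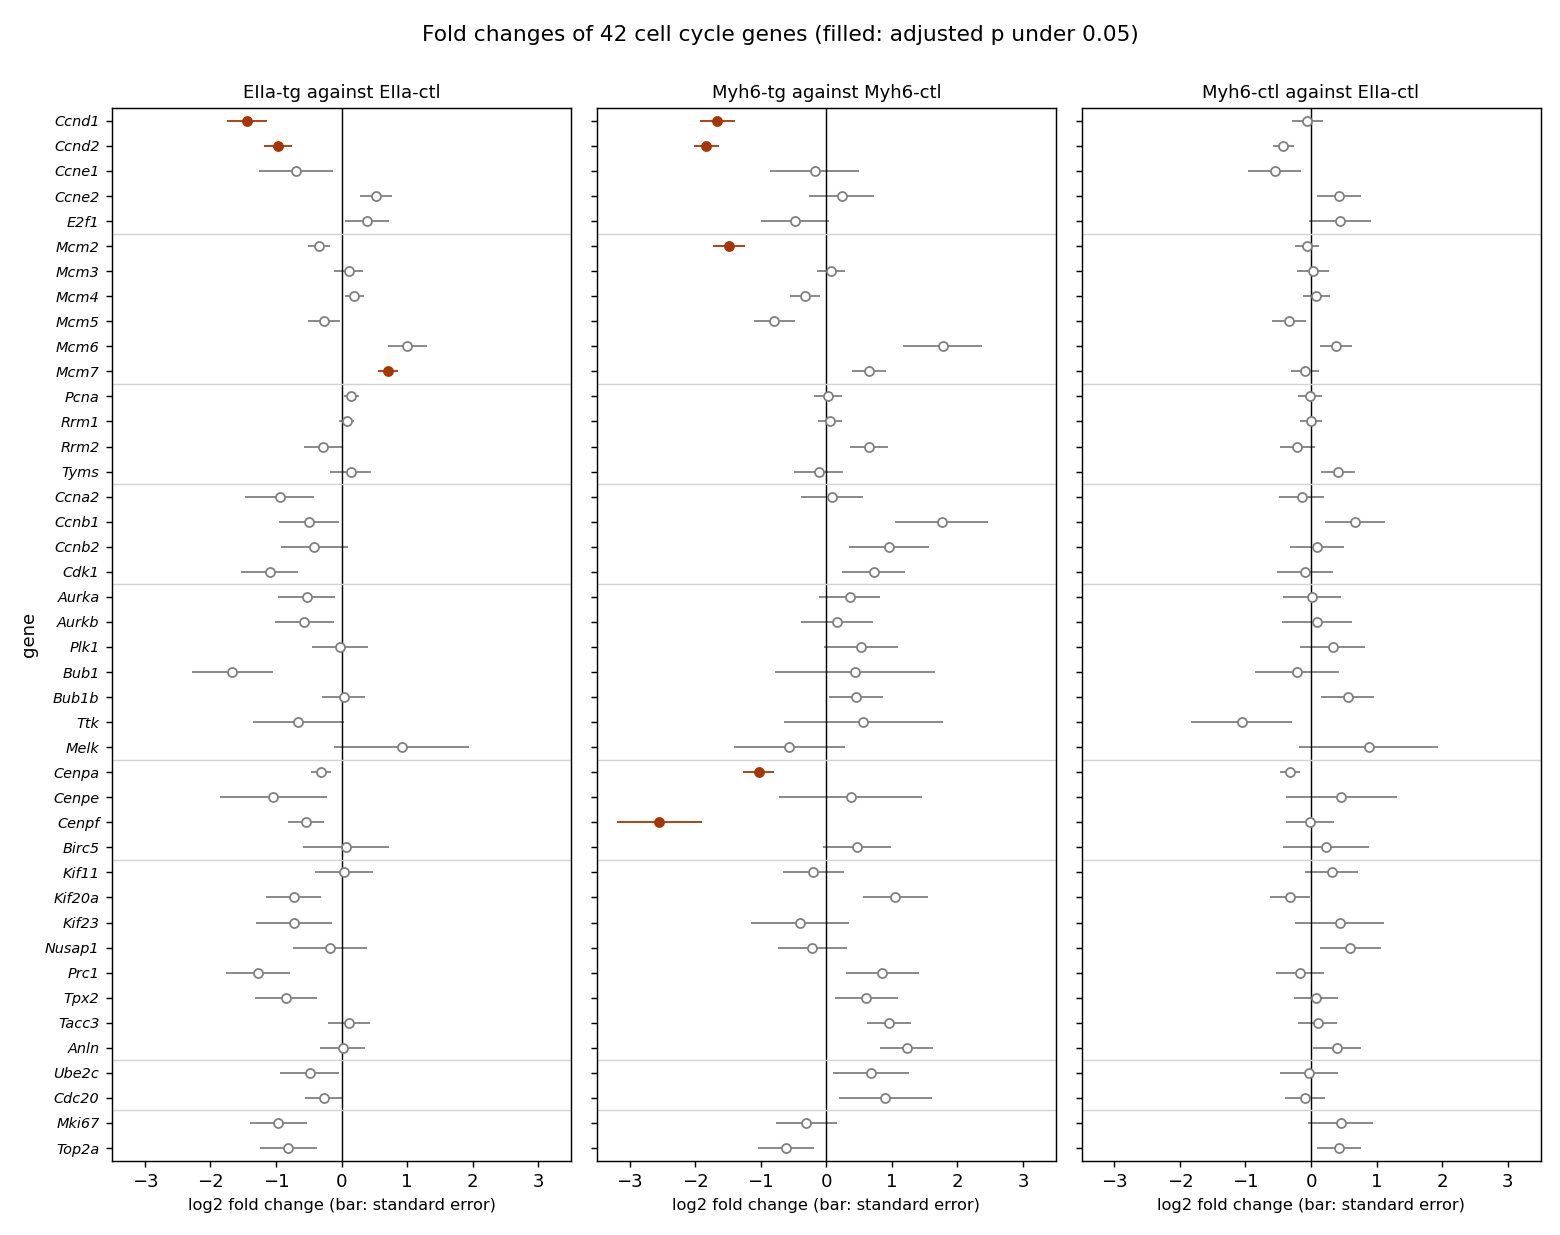
Log2 fold changes (horizontal axes, bars give the standard error) of the 42 genes by edgeR in 3 comparisons, ordered by role from G1 at the top to chromatin markers at the bottom, with filled points for an adjusted p under 0.05. Filled points number 3 in EIIa-tg, 5 in Myh6-tg and 0 between the control groups.

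The mitotic genes split the hearts labelled Myh6-tg. Replicate 1 was the lowest of the group in 24 of 27 mitotic genes and below all controls in 21, whereas in 13 of 27 both replicates 2 and 3 were above all controls. These 13 were Ccnb1, Ccnb2 and Cdk1, the kinases Aurka, Bub1 and Ttk, the spindle and cytokinesis genes Kif20a, Prc1, Tpx2, Tacc3 and Anln, and Ube2c and Cdc20, which act with the anaphase-promoting complex. The split was seen after the values were known and carries no test. The share of all genes with such a split was not counted. Over all but the rarest genes, counts of replicate 1 also differed more from those of replicates 2 and 3 (chi-square per degree of freedom 256.5 and 307.3). Between replicates 2 and 3 the value was 37.6.

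Ccnb1 had 0.975, 1.04 and 1.23 normalised CPM in Myh6-ctl and 0.654, 5.96 and 4.27 in Myh6-tg (log2 fold change 1.76, SE 0.71, adjusted p = 0.124). Cdk1, its kinase, had 2.04, 2.18 and 3.69 against 1.94, 6.26 and 4.70 (0.72, SE 0.48, adjusted p = 0.327). Ccnb1, Ccnb2, Pcna and Tyms have named pseudogenes, so their counts are uncertain where reads match both. For Ccnb1 and Cdk1, replicate 1 was the lowest of the 6 hearts and replicates 2 and 3 the highest. Mki67 did not show this, with 5.89, 2.91 and 9.52 against 3.20, 6.73 and 4.74 (-0.31, SE 0.46, adjusted p = 0.688), and neither did Top2a, with 4.76, 4.60 and 8.02 against 1.90, 5.40 and 3.93 (-0.61, SE 0.43, adjusted p = 0.352). For these 2 genes the highest of the 6 hearts was Myh6-ctl replicate 3.

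**Figure D3:**
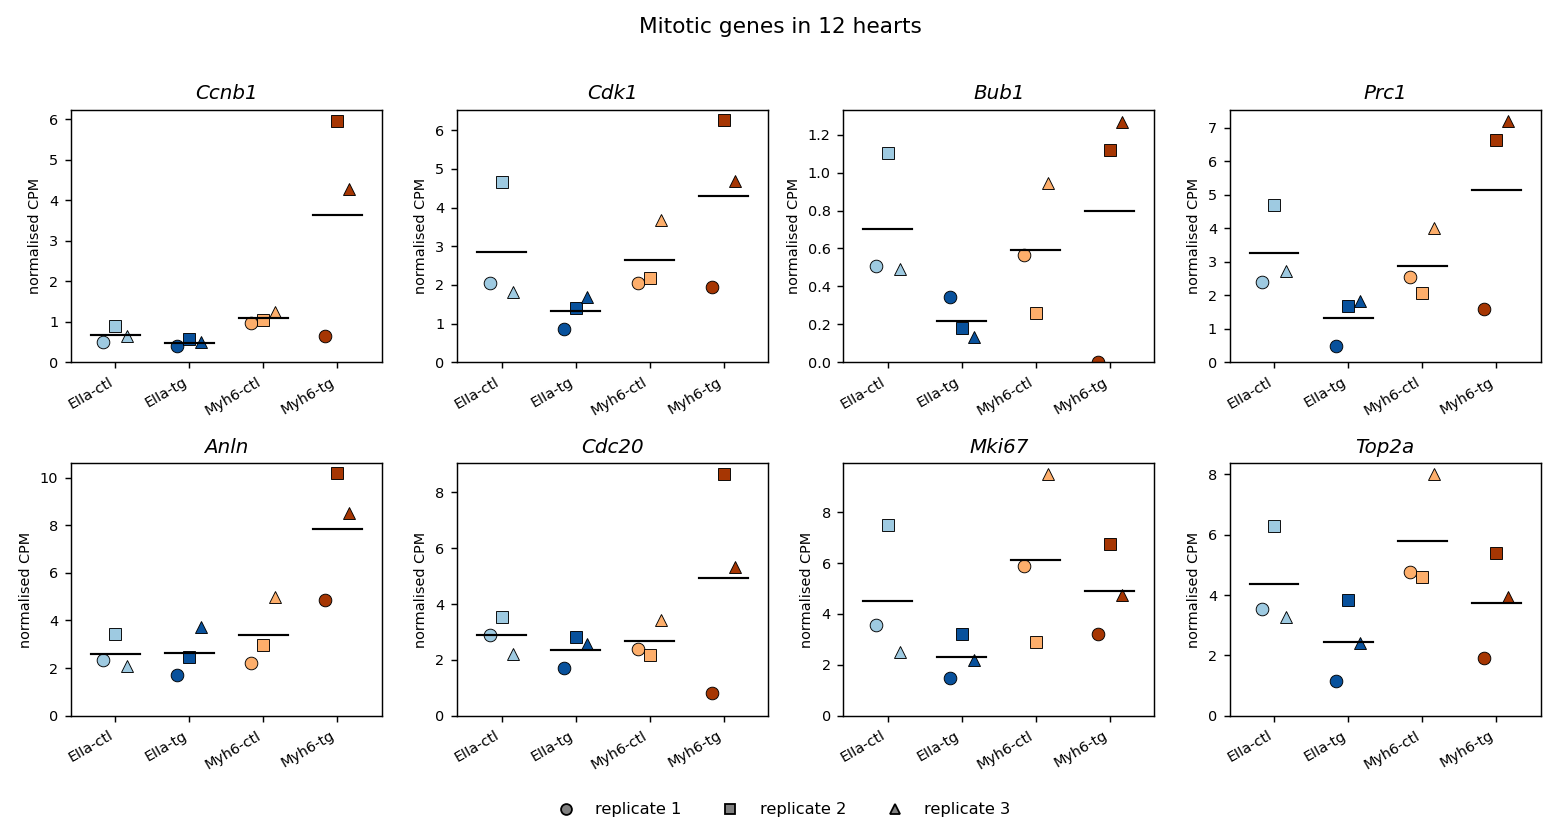
Normalised CPM (vertical axes, from 0) of 8 mitotic genes in the 4 groups, drawn as points by replicate with the group mean as a line. Myh6-tg replicates 2 and 3 are the 2 highest of the Myh6 hearts in Ccnb1, Cdk1, Bub1, Prc1, Anln and Cdc20 but not in Mki67 or Top2a.

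Without Myh6-tg replicate 1, which leaves 2 transgenic hearts, 8 of 42 genes were called higher, against 12.8% of all genes, and the same 5 were called lower, against 13.9%. The 8 were Mcm6 (log2 fold change 2.24, SE 0.23), Ccnb1 (2.25, SE 0.33), Kif20a (1.44, SE 0.28), Anln (1.47, SE 0.36), Cdc20 (1.39, SE 0.33), Ccnb2 (1.40, SE 0.35), Prc1 (1.28, SE 0.33) and Mcm7 (0.82, SE 0.23), with adjusted p-values from 0.00125 for Mcm6 to 0.037 for Mcm7. Kif20a, a mitotic kinesin, and Anln, a scaffold of the cleavage furrow, act late in division. Kif20a exons share 1271 bases with Cdc23 on the other strand, Prc1 exons 911 with Rccd1 and Cdc20 exons 53 with Elovl1. Among the 13 genes above, Ube2c exons likewise share 592 bases with Tnnc2 and Tacc3 exons 289 with Tmem129. Use of strand in counting is not known, and these neighbours were not examined. Myh6-tg replicate 1 was left out after its values were seen. It was the lowest of its group in 24 of 27 mitotic genes and also in Mcm6 and Mcm7. Higher calls of these genes without it are therefore no independent test. Same-numbered Myh6 hearts deviated together, and with the replicate number as a block Anln was called higher as well (1.24, SE 0.29, adjusted p = 0.0298), against 9.76% of all genes, while the same 5 were called lower.

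Over all 42 genes the median log2 fold change in Myh6-tg was 0.20, against 0.032 over all genes tested. In 2 of 42 genes, Rrm2 and Tacc3, every Myh6-tg heart was above every control, against 19.8% of all genes, and in 6 of 42 every heart was below, against 20.3%. Role medians were 0.84 for the G2 and mitotic cyclins with Cdk1, 0.79 for mitotic exit, 0.73 for spindle and cytokinesis and 0.44 for the mitotic kinases, against 0.04 for the clamp and nucleotide supply, -0.13 for the helicase, -0.33 for centromere and passenger genes, -0.46 for the chromatin markers Mki67 and Top2a and -0.47 for G1 control.

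**Figure D4:**
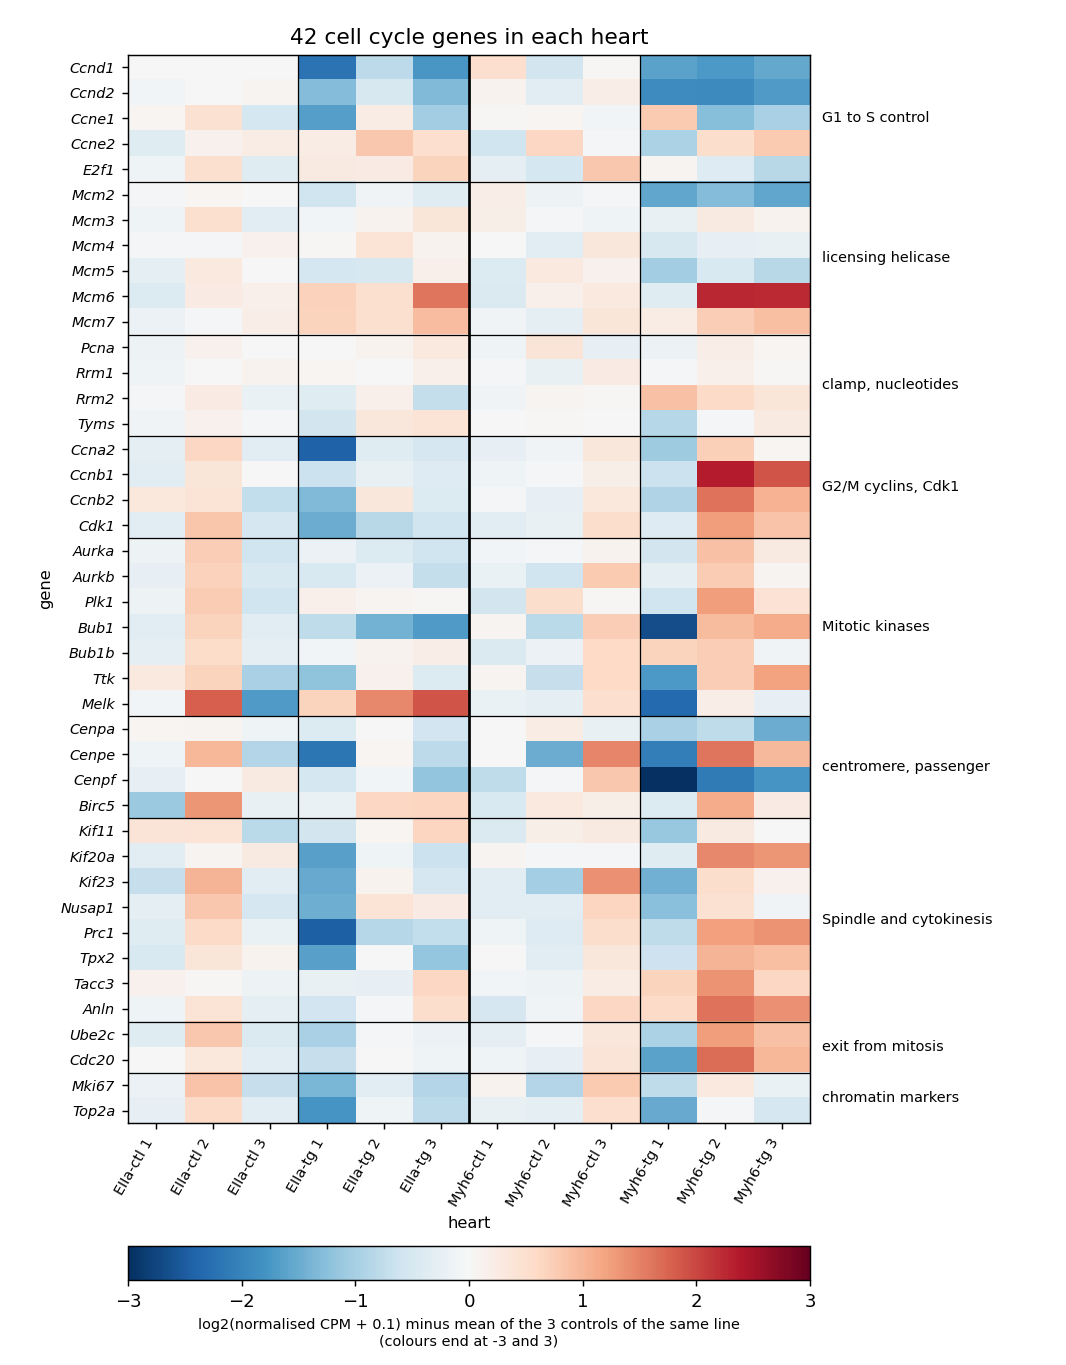
Log2(normalised CPM + 0.1) of the 42 genes (rows, by role) in each of the 12 hearts (columns), minus the mean of the 3 controls of the same line, blue for lower and red for higher. Ccnd1 and Ccnd2 are blue in all 6 transgenic hearts, and from Ccnb1 down most mitotic genes are blue in Myh6-tg replicate 1 and red in replicates 2 and 3.

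Cell type markers differed between the same hearts. The 27 mitotic genes summed to 47.4, 127 and 92.9 normalised CPM in Myh6-tg replicates 1 to 3, against 74.3, 79.3 and 113 in Myh6-ctl. The 3 activated fibroblast markers, of which Postn and Cthrc1 were called higher, summed to 740, 2074 and 2033 against 61.0 to 134. The third, Fap, was not called (log2 fold change -0.24, SE 0.34, edgeR adjusted p = 0.659). The 6 fibroblast markers, 3 of them called higher (Pdgfra, Col1a1 and Col1a2), summed to 2093, 4065 and 4495 against 1526 to 1886. Dcn (log2 fold change 0.64), Tcf21 (0.28) and Lum (-0.79, edgeR adjusted p = 0.198) were not called. In Myh6-tg the heart with the lowest mitotic sum thus also had the lowest fibroblast sums of its group. The same held in Myh6-ctl (replicate 1) but not in EIIa-ctl. In EIIa-tg it held for the activated list alone, and the heart with the highest mitotic sum (80.1) had the lowest fibroblast sum (1945). Endothelial markers summed to 596, 527 and 485 in Myh6-tg replicates 1 to 3. Smooth muscle and pericyte markers summed to 974, 940 and 848, so both lists were highest in replicate 1.

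In turn, the 7 cardiomyocyte markers, 3 of them called lower, summed to 27472, 10580 and 8028 against 26624 to 35081, with replicate 1 within the control range. Macrophage markers (0 of 6 called) summed to 1020, 560 and 545 against 414 to 571. No marker of these lists was at 0 in all hearts of a group. Counts from the mitochondrial genome took 15.5% to 18.6% of the total in Myh6-tg and 31.8% to 38.3% in Myh6-ctl. Replicate 1 was also the heart with Y-linked counts, and in the other groups such a heart was the lowest in 7 (EIIa-ctl), 20 (EIIa-tg) and 12 (Myh6-ctl) of 27 mitotic genes. The part of cell makeup and sex in these results was not tested.

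**Figure D5:**
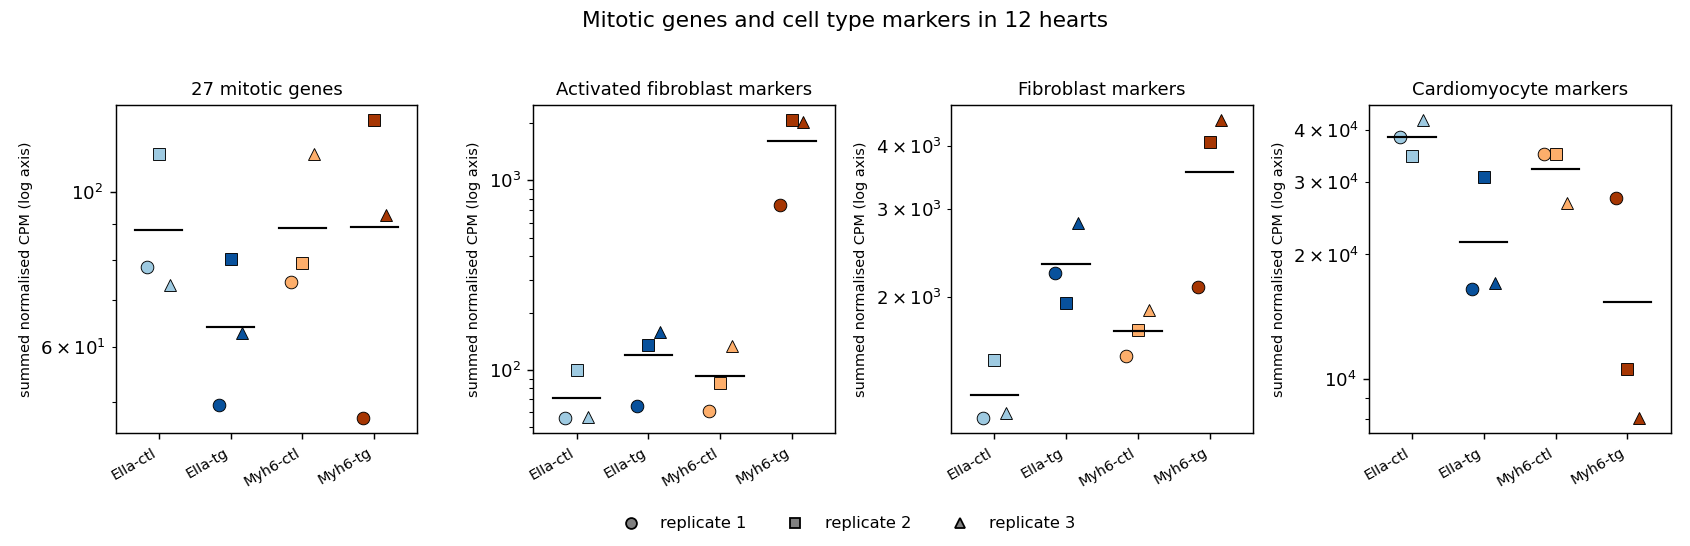
Summed normalised CPM (log vertical axes) of the 27 mitotic genes and of 3 marker lists in each heart, with points by replicate and the arithmetic group mean as a line. In Myh6-tg, replicate 1 has the lowest mitotic and fibroblast sums and the highest cardiomyocyte sum, 27472 against 10580 and 8028.

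The control groups were compared across age, day 90 Myh6-ctl against day 30 EIIa-ctl. None of the 42 genes was called in either direction by edgeR, against 0.02% of 14990 genes called higher and 0.0133% called lower. The lowest p among the 42, and the 1 under 0.05 unadjusted (against 11.3% of all genes), was that of Ccnd2. It had 87.4, 91.4 and 97.5 normalised CPM at day 30 and 72.3, 54.5 and 77.8 at day 90 (log2 fold change -0.42, SE 0.16, adjusted p = 0.373). DESeq2, which called 428 genes in all, also called 0 of the 42. Age, the Cre allele and the corn oil injections differ together here and cannot be told apart.

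Of the proliferation markers, none passed the test between the ages. Mki67 had a log2 fold change of 0.45 (SE 0.49, adjusted p = 0.794) and Top2a one of 0.42 (SE 0.34, adjusted p = 0.684), and for Pcna it was -0.02 (SE 0.18) and for Cdk1 -0.09 (SE 0.43). The largest fold changes were those of 2 rare mitotic kinases. Ttk had 0.599, 0.814 and 0.192 normalised CPM at day 30 and 0.249, 0.104 and 0.397 at day 90 (-1.06, SE 0.77, adjusted p = 0.656). Melk had 0.207, 1.02 and 0 against 0.612, 0.572 and 1.06 (0.88, SE 1.06, adjusted p = 0.816). Both pairs of groups overlapped, and the lowest hearts lay near or under the value of 3 counts, which was 0.0559 to 0.0822 normalised CPM across hearts.

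Over the 42 genes the median was 0.052, with 23 above 0, against 0.015 over all genes tested. The day 90 hearts were all above the day 30 hearts in 2 of 42, Tyms and Ccnb1, against 8.34% of all genes, and all below in 1 of 42, Ccnd2, against 9.12%. A difference of the size of the Mki67 estimate was not detectable in 6 hearts at that SE.

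Next, the changes of the 2 lines were set against each other in a fit of all 12 hearts (change in Myh6-tg minus change in EIIa-tg). Mcm2 alone was called, with a lower change in Myh6-tg (difference of log2 fold changes -1.14, SE 0.26, adjusted p = 0.0308), against 2.27% of 15929 genes called lower. None of 42 was called higher by edgeR, against 1.65%. At an unadjusted p under 0.05 by edgeR, 5 were positive and 4 negative, against 19.4% of all genes in either direction. DESeq2 likewise called 0 higher and Mcm2 lower. Ccnd1, lower in both lines, had a difference of -0.22 (SE 0.44, adjusted p = 0.839), and Ccnd2 one of -0.86 (SE 0.30, adjusted p = 0.134).

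The largest differences not called were those of Ccnb1 (2.25, SE 0.86, adjusted p = 0.173) and Prc1 (2.13, SE 0.82, adjusted p = 0.174), where Myh6-tg had 1.58, 6.64 and 7.20 normalised CPM of Prc1 against 2.54, 2.08 and 4.01 in Myh6-ctl. Cdk1 (1.81, SE 0.69) and Cenpf (-2.01, SE 0.74) also missed the threshold. The median difference over the 42 genes was 0.47. Without Myh6-tg replicate 1, Ccnb1, Cdk1, Kif20a, Prc1 and Cdc20 were called higher, against 3.95% of all genes, and Mcm2 lower. That heart was left out after its low mitotic values were seen, and 2 Myh6-tg hearts remain. The higher calls are therefore no independent test. The Mcm2 call was lost when any 1 EIIa-ctl heart was left out, and likewise for EIIa-tg replicates 2 and 3, Myh6-ctl replicate 1 and Myh6-tg replicate 3, and under a replicate block. Scaling by library totals alone also lost it and called 356 of 604 genes higher, against 263 of 624 with TMM.

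Finally, 118 other genes of the pathway were counted. In EIIa-tg, 4 of the 115 tested were called higher and 3 lower. The highest in significance was Cdkn1a, which encodes the CDK inhibitor p21, with 15.4, 42.3 and 14.3 normalised CPM in EIIa-ctl and 262, 145 and 397 in EIIa-tg (log2 fold change 3.49, SE 0.51, adjusted p = 0.016). Wee1, which holds CDK1 inactive, rose by 0.75 (SE 0.12) and the MuvB subunit Lin37 by 0.95 (SE 0.15), both with an adjusted p of 0.0166. Lower were Dut (-0.56, SE 0.13), which removes dUTP, the licensing inhibitor Gmnn (-1.11, SE 0.26) and the condensin subunit Ncapd2 (-0.69, SE 0.19).

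In Myh6-tg, 3 of 117 were called higher and 8 lower. Cdkn1a had 62.7, 107 and 82.7 normalised CPM in Myh6-ctl against 182, 661 and 536 (2.47, SE 0.47, adjusted p = 0.0139), with every transgenic heart above every control. Cdkn2b, an inhibitor of the cyclin D kinases, had 0.317, 0.598 and 0.776 against 1.12, 3.27 and 3.82 (2.29, SE 0.60, adjusted p = 0.0365). Dbf4, which activates the replication kinase CDC7, rose by 1.06 (SE 0.29). The lowest p among those that fell belonged to Dut (-1.76, SE 0.26), the cohesin protector Sgo2a (-1.60, SE 0.30) and the repressor E2f6 (-0.92, SE 0.18). Among the 57 other mitotic genes tested 40 had a positive fold change (median 0.40), but 0 were called higher and 4 lower by edgeR.

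Between the control groups 0 of 116 were called by edgeR, with 4 at an unadjusted p under 0.05, against 11.3% of all genes. Of the differences between the lines, 2 of 118 were called, Sgo2a (-1.58, SE 0.33, adjusted p = 0.0209) and Dut (-1.20, SE 0.28, adjusted p = 0.0351), both lower in Myh6-tg. The shares called among these genes were under those of all genes given above in each direction.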

How the data were processed

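RNA of 12 mouse hearts was sequenced after library preparation with a NEBNext Ultra RNA kit. The counts, whole reads per gene for all 12 hearts, were deposited by the authors without normalisation. The FPKM values were made by the authors from the same libraries. The submitters' processing notes name HISAT2 2.0.4, StringTie 2.2.1 and DESeq2, and the builds mm10 and GRCm39, whereas the study's methods give GRCm38. The counting settings and use of strand are not given in the sources used here.

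The counts were tested in R 4.3.3 with edgeR 4.0.16 (filterByExpr, TMM scaling, quasi-likelihood F-test) in the 6 hearts of a comparison, or in all 12 for the difference between lines. Genes were called at a Benjamini-Hochberg adjusted p under 0.05 over all genes tested. Normalised CPM are counts over TMM-scaled totals (factors 0.822 to 1.32). DESeq2 1.42.0 and limma 3.58.1 on log2(FPKM + 1) were alternatives. In simulated data of the Myh6 comparison (15298 genes) edgeR called 66 of 100 genes changed 4-fold, 6 of 100 changed 2-fold and 8 unchanged genes, and in those of the EIIa comparison (14908 genes) 85, 54 and 13. Figures used Python 3.11.15 with matplotlib 3.10.9.

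Per-heart values are given for Mki67, Top2a, Cdk1, Ccnb1, Ccnd1, Ccnd2, Pcna and Mcm2 and, in each comparison, for the 4 called genes with the lowest p and the 2 tested genes not called with the largest fold change. Of the pathway genes, up to 3 called in each direction are named. A few others (such as Anln and Kif20a) were chosen after their values were seen. The gene set, roles, pathway and marker lists were chosen with earlier results of these data known.

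Groups were taken from sample titles. Deviations of same-numbered hearts from their group means correlated at 0.258, 0.201 and 0.228 between the Myh6 groups, a pairing seen by this check of the data alone. The main fits did not include it, and it entered only as the replicate block among the alternatives. No such pairing was found between the other groups. The labels call the hearts biological replicates. Exon overlaps used GENCODE M21 and promoters RefSeq GRCm38.p6. The floor of 3 counts covers counting error only. Each SE is the absolute log2 fold change over the square root of edgeR's quasi-likelihood F, so it includes spread between hearts.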

Additional observations from a re-analysis of the deposited data

Results flagged for a closer look

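The change of Mcm2, a subunit of the replicative helicase, differed between the lines by edgeR's test of the difference itself, but not under every alternative. The log2 fold change in Myh6-tg minus that in EIIa-tg was -1.14 (SE 0.26, edgeR adjusted p = 0.0308 over 15929 genes). Mcm2 was lower in 3 of 3 Myh6-tg hearts than in any Myh6-ctl heart (2.55 to 3.10 against 7.02 to 8.91 normalised CPM) and in 3 of 3 EIIa-tg hearts than in any EIIa-ctl heart (5.35 to 7.57 against 7.80 to 8.53). The call was lost under the replicate block, with totals only, in each limma fit and in 7 of 12 fits that left out 1 heart. The lines also differ in age, Cre and tamoxifen, which cannot be told apart here.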

How the results depend on the processing

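Among the 42 genes, EIIa-tg had 1 called higher and 2 lower as reported. The higher count was 2 with DESeq2 (3 lower), where 1800 of 19471 genes were higher in all. It was also 2 with totals only (2531 of 14908) and with no filter (1316 of 19490), and 0 with all 12 hearts in one fit (176 of 15929). Both counts were 0 with a replicate block (1 of 14908 genes called in all) and with the study's thresholds (0 of 14908). They were also 0 with limma on log2(FPKM + 1) without a filter (1 of 19490). The same held with replicates 2 and 3 alone (4 of 16130), a fit chosen after seeing the data. Hardly any gene was called in these fits, so their 0 counts say nothing particular to the 42 genes. With 1 heart left out, 0 to 2 were higher and 0 to 5 lower. In Myh6-tg, 0 were higher as reported (all genes called higher are given in brackets, here 1370 of 15298). With DESeq2 3 were higher (1817 of 20011), and with totals only 4 (3153 of 15298), with 3 lower. All 12 hearts in one fit gave 5 (2475 of 15929), with 6 lower, and the replicate block 1 (1493 of 15298). Limma on log2(FPKM + 1) or log2(FPKM + 0.1) gave 4 of 36 tested (3328 and 3292 of 12947), and 1 without its filter (2616 of 20052). Replicates 2 and 3 gave 5 (1938 of 16130). The study's thresholds left 3 lower, and leaving out 1 heart gave 0 to 8 higher and 3 to 5 lower. Of the differences between lines, the lower count went from 1 to 0 with totals only, the replicate block, the study's thresholds, each limma fit and replicates 2 and 3. That last fit had 2 higher, against 175 of 16130 genes. Leaving out 1 heart gave 0 to 5 higher and 0 to 1 lower. The causes were not tested. Same-numbered EIIa hearts were not taken as paired (correlations of deviations 0.0925, -0.134 and -0.122), although both first replicates had Y-linked reads. The replicate block changed no call between the control groups. Of the single genes followed over all alternatives, 692 values kept direction and call, 45 lost a call, 14 gained one and 31 changed sign.

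Some log2 fold changes near 0 changed sign. In Myh6-tg, Mki67 was 0.046 with totals only and 0.033, 0.14 and 0.033 with the limma fits (leave-one-out -0.64 to 0.16), and Pcna was -0.0057 without mitochondrial genes (-0.10 to 0.24). For the difference between lines, Pcna was 0.11 with totals only and 0.10, 0.10 and 0.10 with limma (-0.25 to 0.087), Ccnd1 was 0.15, 0.17 and 0.15 with limma (-0.49 to 0.28) and Top2a ranged from -0.16 to 0.66. Between the control groups, leaving out 1 heart gave -0.027 to 1.03 for Mki67, -0.42 to 0.47 for Cdk1, -0.34 to 0.17 for Ccnd1, -0.23 to 0.094 for Pcna and -0.17 to 0.015 for Mcm2. Rare mitotic genes limit what 3 hearts a group can show.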
